A study of Mus musculus with 6 samples.

Results

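Notch1, Jag1, Numb, Sirt1, Hdac1, Ppp1r10, Bcl2, Birc5 and Gas1 are genes that the literature has studied as direct targets of the microRNA miR-34a. They were taken by gene symbol from a deposited expression table of 10189 genes, in which all 9 had a row. The study profiled RNA of primary mouse articular chondrocytes with and without miR-34a, to find the signalling pathways that depend on this microRNA in joint cartilage. The KO group was 3 samples from mice homozygous for a global deletion (genotype MiR-34a -/-), bred from heterozygous parents. The control group was 3 wild-type samples. Every sample came from C57BL/6 mice aged 5 weeks and was left untreated, and the labels write the same model name, Mir34atm1.2 Mrl, for the wild-type samples as for the KO samples. Cartilage of the knee and hip was pooled and digested with collagenase, and the released cells were grown in serum until confluent, so the RNA is that of cultured cells. The deletion is present in every cell of the animal and is not limited to chondrocytes. The sources do not state whether the 3 samples of a genotype are separate animals or cultures, so the p-values below rest on a sample-to-sample spread that may be only technical.

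A microRNA guides a silencing complex to messenger RNAs by pairing its seed, the bases near its 5′ end, with short matches that usually lie in the 3′ UTR, and the paired messenger is degraded or translated less. Part of this repression acts on translation and leaves RNA levels as they were, and RNA-seq reads only the RNA. The gene of miR-34a is activated by p53, and its published targets act in Notch signalling, deacetylation, cell survival and cell division. In cartilage, miR-34a has been studied in connection with chondrocyte death and osteoarthritis.

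The mature microRNAs are shown first because every site below is defined by their common seed. Capitals mark bases 2 to 8, the sequences are those of RefSeq (GRCm38.p6), and the first is the one that the KO mice lack.
mmu-miR-34a-5p: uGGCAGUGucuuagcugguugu
mmu-miR-34b-5p: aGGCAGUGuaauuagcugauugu
mmu-miR-449a-5p: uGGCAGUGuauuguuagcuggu
mmu-miR-449c-5p: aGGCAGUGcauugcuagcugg
All 4 share the seed GGCAGUG, and they differ in the bases after it. No miR-34c-5p was found in the reference used, so it is not printed. The list may therefore leave out microRNAs with this seed. The precursor genes of miR-34b, miR-449a and miR-449c were not analysed here, and neither was Mir34a itself, so the genotype labels were not checked against the deleted gene. The mature miR-34a-5p lies at chr4:150068473-150068494 (mm10).

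The 3′ UTRs of the 9 genes were searched on the transcript strand for CACTGCC, which pairs with bases 2 to 8, for ACTGCCA, which pairs with bases 2 to 7 and has an A opposite base 1, and for the core ACTGCC alone. The first 2 motifs both contain the third. A transcript with both flanks would read CACTGCCA, and none of the 9 genes has it in its longest annotated 3′ UTR, against 6.29% of the 9323 genes of the table with such a UTR. The sites are printed as 30-base windows in mm10, 5′ to 3′ on the transcript, with the matched bases in capitals. They are shown because the direction of each gene is set against its kind of site below. The first group pairs with bases 2 to 8.
Notch1, 187 bases into the UTR, chr2:26459337-26459366, minus strand: gtacttttattttccacagaaaCACTGCCt
Notch1, 458 bases into the UTR, chr2:26459066-26459095, minus strand: agaattgcccctcccccacactCACTGCCc
Notch1, 800 bases into the UTR, chr2:26458724-26458753, minus strand: gtgtggtgcctcctagagaaaaCACTGCCt
Jag1, 1347 bases into the UTR, chr2:137081670-137081699, minus strand: tgtttagatttgccgtagagtaCACTGCCt
Ppp1r10, 764 bases into the UTR, chr17:35932000-35932029, plus strand: agcgggcctgaaacactacatgCACTGCCt
Notch1 also has ACTGCCA at 424 and 901 bases into its UTR, which makes 5 sites in 1628 bases.

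The next group has ACTGCCA as its best match, the pairing of bases 2 to 7 with an A beyond it.
Sirt1, 781 bases into the UTR, chr10:63319849-63319878, minus strand: ctgcatagatcttcaccacaaatACTGCCA
Sirt1, 1277 bases into the UTR, chr10:63319353-63319382, minus strand: taaaatacccagttaggaccattACTGCCA
Gas1, 212 bases into the UTR, chr13:60175569-60175598, minus strand: gcagagataaccggctgatctatACTGCCA
Gas1, 740 bases into the UTR, chr13:60175041-60175070, minus strand: tgttttttatcctaaagctcggtACTGCCA
Bcl2, 198 bases into the UTR, chr1:106543060-106543089, minus strand: gcaaatggtcgaatcagctatttACTGCCA
Hdac1, 227 bases into the UTR, chr4:129516376-129516405, minus strand: caaccagaagagaaaaatcctgaACTGCCA
Gas1 has a further match, of the core alone, at 1251 bases into its UTR. Birc5 and Numb have the core alone.
Birc5, 1198 bases into the UTR, chr11:117853982-117854011, plus strand: tgtaataattgtctcacaggcttACTGCCc
Birc5, 1443 bases into the UTR, chr11:117854227-117854256, plus strand: tgaattgctctgtttggcttcatACTGCCg
Numb, 193 bases into the UTR, chr12:83795240-83795269, minus strand: tgaggcaagcctccctggggaggACTGCCc
CACTGCC was present in 3 of the 9 UTRs and in 17.9% of all UTRs, CACTGCC or ACTGCCA in 7 of 9 and in 24.3%, and ACTGCC in 9 of 9 and in 35.3%. Published targets are commonly picked in part through such matches, so the counts describe them and are not independent evidence. A match depends on length: among UTRs within 1.2-fold of the 5086 bases of Bcl2, 50.5% held CACTGCC or ACTGCCA, and near the 505 bases of Hdac1 the share was 9.66%. The coding sequence held CACTGCC in 4 of the 9 genes, Notch1, Jag1, Birc5 and Ppp1r10, against 19.5% of all genes.

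**Figure D1:**
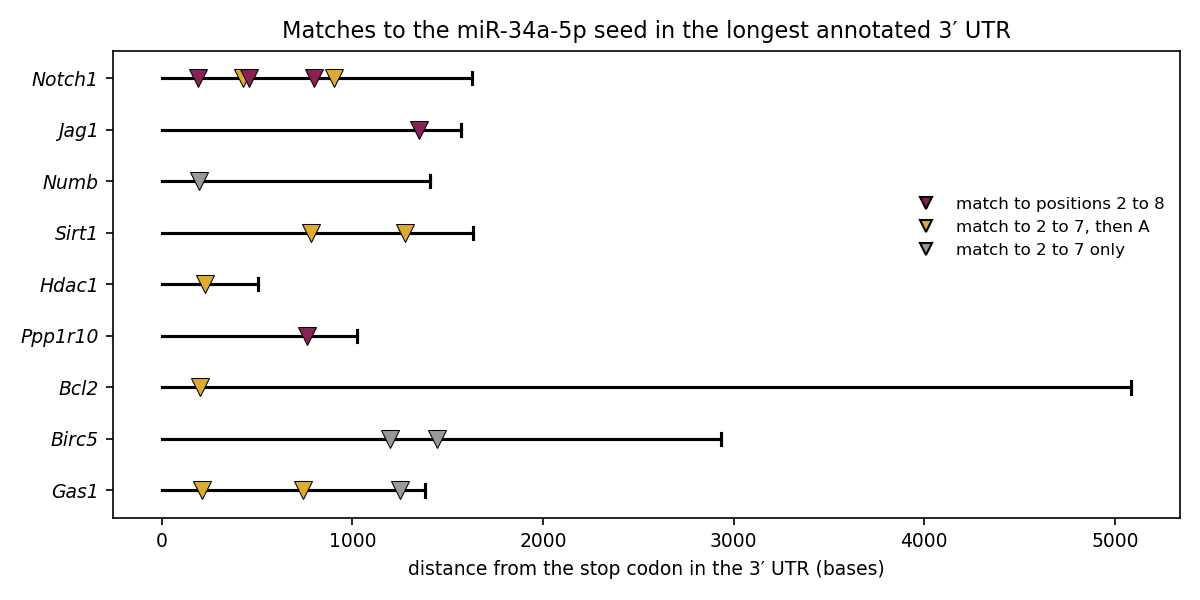
Positions of the seed matches along the longest annotated 3′ UTR of each of the 9 genes, in bases from the stop codon, with 1 marker per match and colours for the kind of match. Notch1 carries 5 matches in 1628 bases, whereas Bcl2 carries 1 in 5086.

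The values are TMM-normalized CPM, read counts scaled to an effective library size, from which whole reads were recovered. The libraries held 989217 to 5266617 reads on the listed genes, and 947081 to 1772185 after the 3 rows Rn45s, Lars2 and Mir6236 were set aside. Wild type 1 had 59.1% of its reads on Rn45s, a ribosomal RNA precursor. The 9 genes had between 10 reads (Birc5 in KO 2) and 913 reads (Gas1 in KO 1) per library, so that counting error alone is wide for the low ones. Exact Poisson 95% intervals are used for it, and since reads carry no molecular identifiers they cover counting error only. Tsix, which overlaps Xist on the opposite strand, was higher than Xist in each library, by 8.12 to 16.5 times, and no source used here gives the strand setting of the counting. Noncoding genes on the opposite strand share 1482 exonic bases with Notch1, 589 with Gas1, 558 with Bcl2, 166 with Numb and 65 with Sirt1, none of them coding, so reads of these 5 genes and of their partners may not have been told apart. Jag1, Birc5, Hdac1 and Ppp1r10 have no exonic base opposite another gene. The unknown strand setting bears on their rows too, because which strand was counted was not tested for any gene. The median log2 fold change was −0.20 for genes opposite coding exons, −0.03 for genes opposite noncoding exons only and 0.07 for genes with no opposite gene.

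The cells were checked against markers of cartilage and of other cell types. Chondrocyte markers had 12 of 14 listed genes in the table and summed to 2475 to 3820 CPM in wild type and 3830 to 6906 CPM in KO. Fibroblast and dedifferentiation markers, with 8 of 9 genes, summed to 7190 to 9353 and 6248 to 8829 CPM, and osteoblast markers, with 5 of 7, to 609 to 1954 and 2901 to 3879 CPM. Of the 12 chondrocyte markers, 11 means were higher and 1 lower in KO on the log2 scale, with a median of 0.66 against 0.02 over all genes. The KO values lay wholly above wild type in 6 of the 12, against 8.82% of all genes. Of the 8 fibroblast markers, 4 were higher and 4 lower in KO on the log2 scale, from −1.87 for Fbn1 to 0.92 for Lum. Among the osteoblast markers, Ibsp alone had 526 to 1659 CPM in wild type and 2628 to 3620 CPM in KO. Bglap and Bglap2 were at 0 in every wild-type library. Macrophage markers, with 13 of 13, summed to 5159 to 6110 CPM in wild type, while the KO libraries had 1032, 15015 and 3411 CPM. Lyz2 alone made up 3326 to 4139 CPM of these sums in wild type and 594, 12165 and 1757 CPM in KO. On the log2 scale 2 of the 13 means were higher in KO and 11 lower, with Mrc1 lowest at −1.66 (SE 0.47). Mural cell markers, with 5 of 7, summed to 130.2 to 134 and 62.2 to 96.5 CPM. Of these, 4 had lower means in KO and 1, Cspg4, was higher, at 1.12 (SE 0.34). Endothelial markers had 2 of 7 genes, with sums of 11.3 to 34.0 and 0 to 43.6 CPM, and both Pecam1 and Cdh5 were at 0 in at least 1 library. Of the neutrophil markers only S100a8 and S100a9 had rows, with sums of 53.9 to 72.2 CPM in wild type and 0 in every KO library. The part of this cell mixture in the differences below was not tested, and in such bulk samples fewer cells of a type and less RNA per cell cannot be told apart.

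None of the 9 genes differed between the genotypes at an adjusted p below 0.05. Their mean log2 fold changes, taken on log2(CPM + 0.5), a scale that understates changes of low genes, as KO minus wild type, ran from −1.05 for Birc5 to 1.02 for Gas1. The means were higher in KO for 4 genes (Gas1, Numb, Ppp1r10 and Bcl2) and lower for 5 (Birc5, Jag1, Hdac1, Sirt1 and Notch1). The median over the 9 was −0.16, against 0.02 over all genes. The test, limma with Benjamini-Hochberg adjustment over the whole table, called 0 of 9, and its background was 0.00981% of all genes, that is 1 gene. The counts on recovered reads were 0 of 9 for each of edgeR (0.0196% of all genes), DESeq2 (1.13%) and limma-voom (0.00981%). At an unadjusted p below 0.05, limma had 1 gene higher, Gas1, where 4.64% of all genes were, and 0 genes lower, where 6.4% were. Gas1 was also the gene below that value with edgeR (10.4% of all genes in either direction) and with DESeq2 (9.26%), while limma-voom had Gas1, Birc5 and Jag1 (10.8%). The 3 KO values lay wholly above the wild-type values in 1 gene, Ppp1r10 (8.82% of all genes), and wholly below them in Birc5 and Hdac1 (9.57%).

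**Figure D2:**
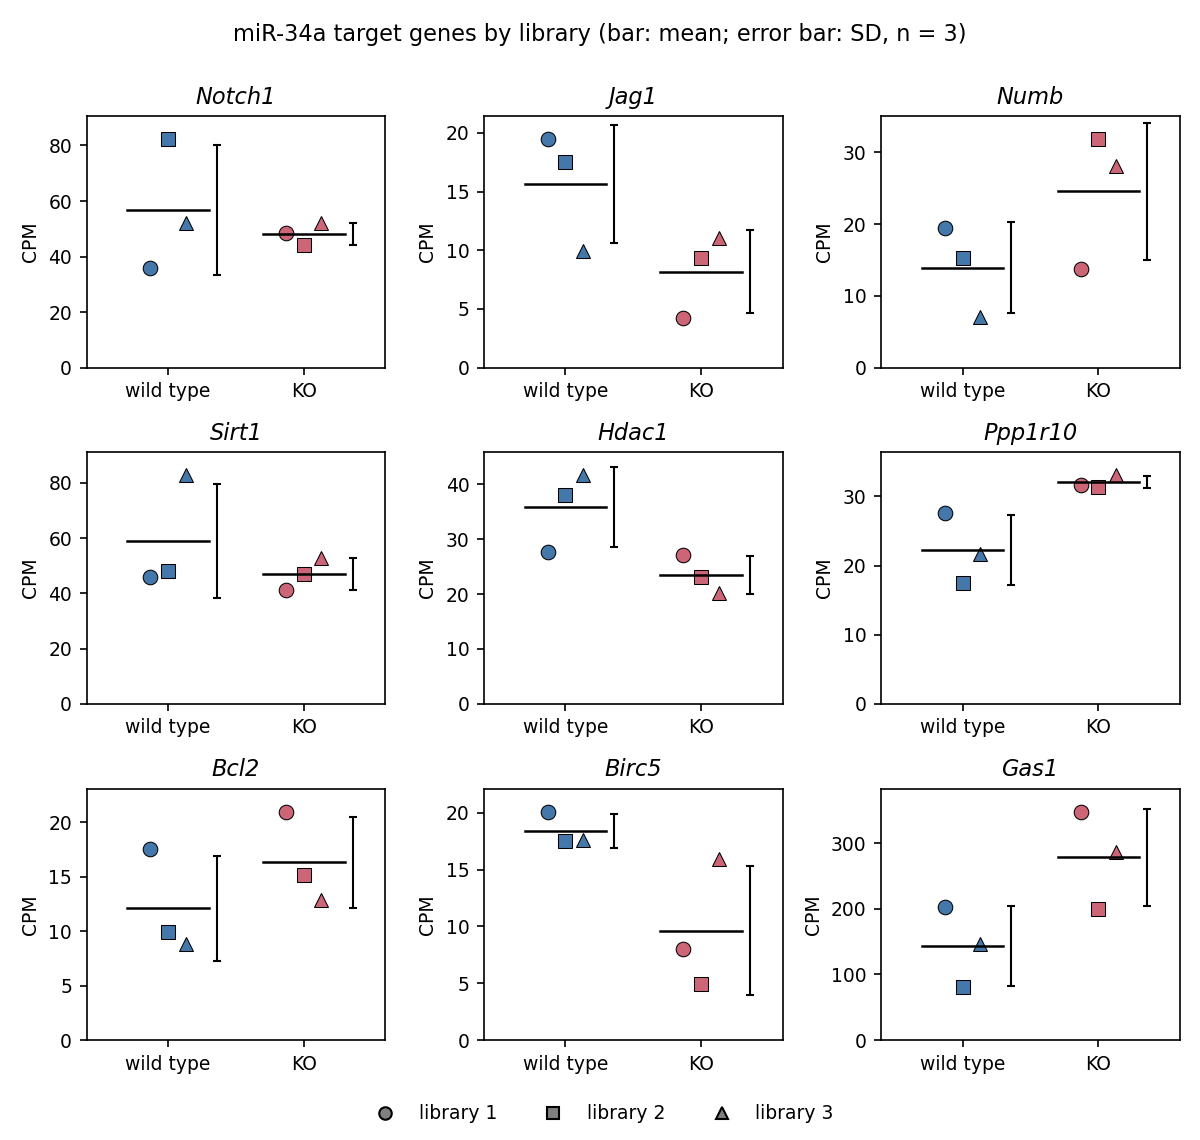
Level of each of the 9 genes in CPM on a linear axis from 0, with 1 point per library (3 wild type in blue, 3 KO in red), a line at each mean and an error bar for the SD. Marker shapes give the library number, which the labels do not state to be a pairing of the genotypes. Gas1 lies between 80.8 and 348 CPM and the KO values of Ppp1r10 lie between 31.4 and 33.0 CPM, all above wild type.

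Notch1, Jag1 and Numb belong to Notch signalling, in which a ligand on 1 cell binds a receptor on its neighbour, the receptor is cut by ADAM proteases and γ-secretase, and its freed intracellular part joins Rbpj in the nucleus to switch on target genes. Notch1, the receptor (chr2:26457903-26516663, minus strand), had 35.8, 82.3 and 52.2 CPM in wild type 1 to 3 and 48.5, 44.1 and 52.0 CPM in KO 1 to 3. The wild-type libraries enclosed the KO values on both sides, and the spread lay in wild type, where the coefficient of variation was 41.5% against 8.21% in KO. Wild type averaged 56.8 ± 23.6 CPM (SD, n = 3), and KO averaged 48.2 ± 3.96 CPM (SD, n = 3). KO against wild type was −0.16 on the log2 scale (SE 0.30, 95% interval −0.84 to 0.53), with a limma adjusted p of 0.864. Wild type 2 set the sign: without it the value was 0.15, with an adjusted p of 0.906. An increase beyond 1.44-fold lies outside the interval of this comparison.

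Jag1, a Notch ligand anchored in the membrane of the signal-sending cell (chr2:137081456-137116644, minus strand), had 19.5, 17.5 and 9.97 CPM in wild type and 4.20, 9.31 and 11.0 CPM in KO. The groups overlapped through wild type 3 and KO 3, and KO 1, with 11 reads, was the lowest of the 6. Means were 15.7 ± 5.02 CPM (SD, n = 3) and 8.17 ± 3.55 CPM (SD, n = 3). This gave a log2 fold change of −0.94 (SE 0.51, 95% interval −2.09 to 0.20), with a limma adjusted p of 0.508. It was −0.55 without KO 1 and −1.23 without wild type 3.

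Numb, an endocytic adaptor that restrains Notch by directing the receptor to degradation (chr12:83794034-83921934, minus strand), had 19.5, 15.2 and 7.04 CPM in wild type and 13.7, 31.8 and 28.1 CPM in KO. KO 2 and KO 3 exceeded all wild-type libraries, and KO 1 lay within them. Means were 13.9 ± 6.32 CPM (SD, n = 3) and 24.6 ± 9.57 CPM (SD, n = 3). On the log2 scale KO was higher by 0.83 (SE 0.47, 95% interval −0.24 to 1.89), with a limma adjusted p of 0.534. Without KO 1 it was 1.19, and without wild type 3 it was 0.41.

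The other genes of the Notch pathway gave no call either. Of 47 listed, 31 had a row, with 14 means higher, 17 lower and a median of −0.07. At an unadjusted limma p below 0.05 there was 1 higher of 31, Pofut1, and 1 lower, Dtx3, which is no larger a share than the 4.64% and 6.4% of all genes. At an adjusted p there were 0 with limma, edgeR and DESeq2. Pofut1, which adds fucose to Notch receptors, had 17.6, 20.6 and 18.2 CPM in wild type and 45.0, 26.9 and 33.0 CPM in KO, without overlap, at 0.85 (SE 0.29, limma adjusted p = 0.334). Dtx3, of the Deltex ubiquitin ligases, had 28.3, 31.2 and 34.0 CPM in wild type and 13.4, 20.1 and 14.7 CPM in KO, also without overlap, at −0.95 (SE 0.29, limma adjusted p = 0.298). Of the other receptors, Notch2 had a log2 fold change of 0.30 (SE 0.23), Notch4 of −0.38 (SE 0.47) and Notch3 of −0.34 (SE 0.74). Notch3 reached 78.0 CPM in wild type 3 alone, against 6.09 to 18.2 CPM in the other libraries. In the nuclear step, Rbpj, the DNA-binding partner, was at 0.49 (SE 0.24) and Spen, its corepressor, at −1.0 (SE 0.50). In receptor modification, Lfng, a glycosyltransferase, was at −1.92 (SE 1.22). It had 12.6, 12.2 and 10.6 CPM in wild type and 0, 2.45 and 22.6 CPM in KO, so KO 3 was the highest library. The ligands Jag2, Dll1, Dll3 and Dll4 and the 6 listed target genes, Hes1, Hes5, Hey1, Hey2, Heyl and Nrarp, had no row in the filtered table and were not analysed here.

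**Figure D3:**
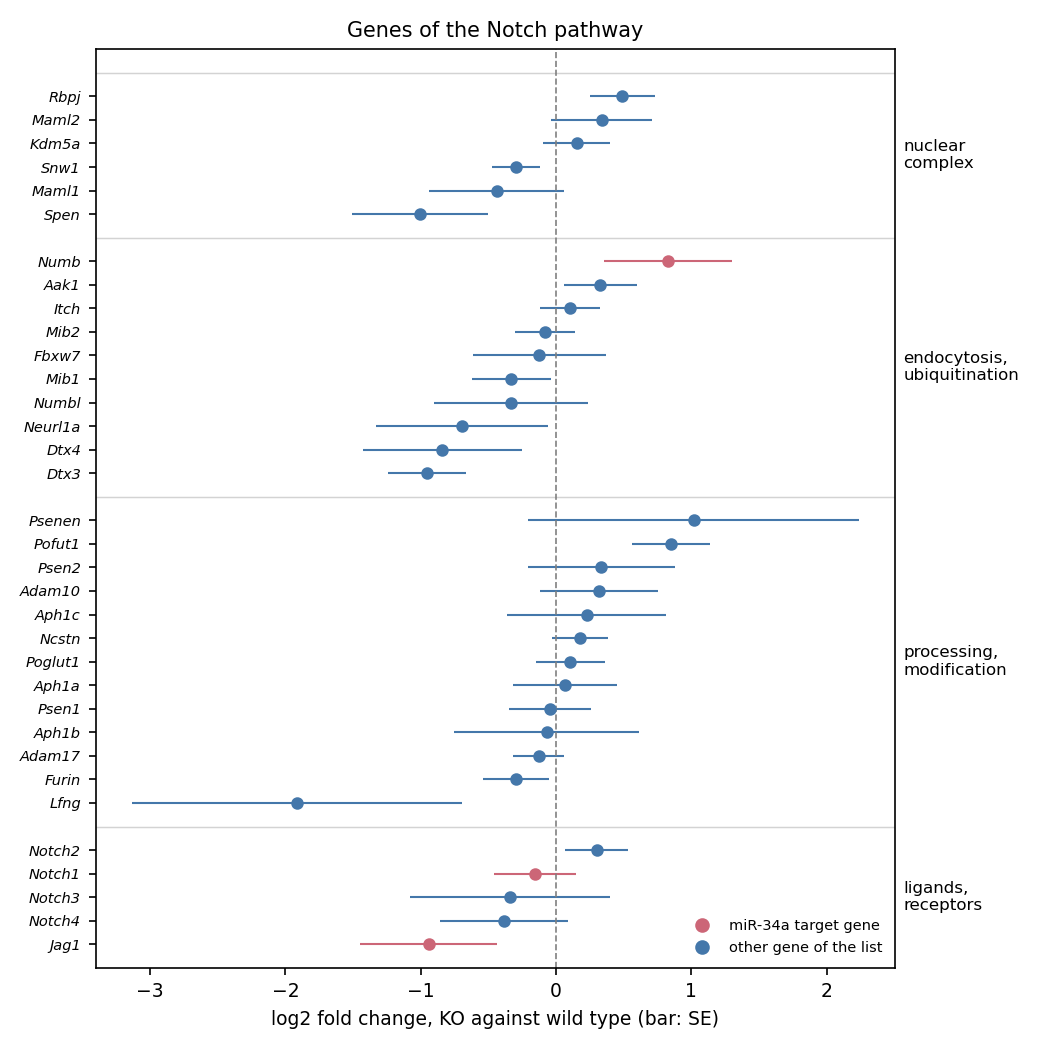
Log2 fold change, KO against wild type, of the measured genes of Notch signalling, grouped by step, with a bar for the SE of 3 against 3 libraries and a dashed line at 0. Lfng, at −1.92 with 0 CPM in KO 1 and 22.6 CPM in KO 3, is the lowest. Numb at 0.83 and Jag1 at −0.94 lie on opposite sides of 0.

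Sirt1, Hdac1 and Ppp1r10 act in the nucleus. Sirt1, an NAD-dependent deacetylase that removes acetyl groups from p53 and histones (chr10:63319005-63381704, minus strand), had 45.9, 48.0 and 82.7 CPM in wild type and 41.2, 47.0 and 52.6 CPM in KO. Wild type 3 stood above the other 5 libraries, which overlapped. Means were 58.8 ± 20.7 CPM (SD, n = 3) and 47.0 ± 5.69 CPM (SD, n = 3). KO against wild type stood at −0.28 on the log2 scale (SE 0.27, 95% interval −0.89 to 0.34), with a limma adjusted p of 0.711. Without wild type 3 it was −0.0059. The upper end of the interval corresponds to a 1.27-fold higher level in KO.

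Of 13 other sirtuin and NAD supply genes, 7 had a row, with 4 means higher and 3 lower and none at an unadjusted limma p below 0.05. Foxo1, a transcription factor that Sirt1 deacetylates, was at 0.86 (SE 0.46) and Sirt2 at 0.74 (SE 0.43). Sirt3, a mitochondrial sirtuin, was at −0.37 (SE 0.32), and it too was highest in wild type 3, at 45.7 CPM against 19.5 to 28.2 CPM elsewhere. Ccar2, an inhibitor of Sirt1, was at −0.27 (SE 0.30).

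Hdac1, a class I histone deacetylase and the catalytic subunit of several corepressor complexes (chr4:129516104-129542713, minus strand), had 27.6, 38.1 and 41.6 CPM in wild type and 27.1, 23.0 and 20.2 CPM in KO. Every KO value lay below every wild-type value, but wild type 1 and KO 1 differed by less than their counting error: the Poisson interval of wild type 1 was 20.1 to 37.1 CPM. Means were 35.8 ± 7.27 CPM (SD, n = 3) and 23.4 ± 3.47 CPM (SD, n = 3). The log2 fold change was −0.59 (SE 0.28, 95% interval −1.21 to 0.03), with a limma adjusted p of 0.470. It lay between −0.76 and −0.47 when each library was left out in turn.

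Among 20 other genes of class I deacetylases and their complexes, 18 had a row, with 10 means higher and 8 lower, a median of 0.06 and none at an unadjusted limma p below 0.05. In 3 of the 18, Hdac2, Sin3a and Ncor1, the KO values lay wholly below wild type, a share that is set against the 9.57% of all genes. Hdac2, the closest relative of Hdac1, had 92.4, 80.0 and 73.3 CPM in wild type and 66.0, 67.6 and 64.2 CPM in KO, at −0.30 (SE 0.19, limma adjusted p = 0.570). Chd4, the remodelling ATPase of the NuRD complex, was at 0.37 (SE 0.21) and Sap30 of the Sin3 complex at 0.37 (SE 0.32).

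Ppp1r10, also named PNUTS, which holds protein phosphatase 1 in the nucleus and takes part in ending transcription (chr17:35916434-35932283, plus strand), had 27.6, 17.5 and 21.7 CPM in wild type and 31.7, 31.4 and 33.0 CPM in KO. All 3 KO values lay above wild type and close together, with a coefficient of variation of 2.78%, less than counting error alone would give, since the chi-square per degree of freedom was 0.0442. Means were 22.3 ± 5.09 CPM (SD, n = 3) and 32.0 ± 0.890 CPM (SD, n = 3). The log2 fold change was 0.54 (SE 0.27, 95% interval −0.08 to 1.15), with a limma adjusted p of 0.495. Of the 5 other genes of the PNUTS and phosphatase complex, all with a row, 2 means were higher and 3 lower, from −0.21 for the catalytic subunit Ppp1ca to 0.18 for Ppp1cb, with none at an unadjusted limma p below 0.05.

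Bcl2 and Birc5 act in survival and division. Bcl2, which blocks the release of cytochrome c from mitochondria (chr1:106538178-106714274, minus strand), had 17.6, 9.90 and 8.79 CPM in wild type and 21.0, 15.2 and 12.8 CPM in KO. Wild type 1 lay above KO 2 and KO 3, so the groups overlapped. Means were 12.1 ± 4.79 CPM (SD, n = 3) and 16.3 ± 4.19 CPM (SD, n = 3). This gave a log2 fold change of 0.45 (SE 0.41, 95% interval −0.47 to 1.38), with a limma adjusted p of 0.676. Leaving out wild type 1 raised it to 0.75, and leaving out KO 1 or wild type 3 lowered it to 0.26 or 0.27. Among 14 other BCL2 family genes, 8 had a row, with 6 means higher and 2 lower and none at an unadjusted limma p below 0.05. The survival factors Bcl2l2 and Bcl2l1 were at 0.74 (SE 0.42) and 0.46 (SE 0.29), and Bid, which promotes death, was at −0.70 (SE 0.41). Mcl1, another survival factor, reached 307 CPM in KO 2, against 123 to 180.0 CPM in the other libraries.

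Birc5, or survivin, is an IAP family protein that serves in mitosis as a subunit of the chromosomal passenger complex (chr11:117849251-117855743, plus strand). It had 20.1, 17.5 and 17.6 CPM in wild type and 8.01, 4.90 and 15.9 CPM in KO. All KO values were below wild type, and KO 3 only just so: its Poisson interval of 10.4 to 23.3 CPM overlapped the 11.1 to 26.3 CPM of wild type 2. Means were 18.4 ± 1.47 CPM (SD, n = 3) and 9.61 ± 5.67 CPM (SD, n = 3). The log2 fold change was −1.05 (SE 0.47, 95% interval −2.11 to 0.00), with a limma adjusted p of 0.454. KO 2 and KO 3 pulled it in opposite ways, since it was −0.67 without KO 2 and −1.48 without KO 3.

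Birc5 was set beside an IAP list and the passenger complex. The 4 other IAP genes listed, Birc2, Birc3, Birc6 and Xiap, had higher means in KO, from 0.15 for Birc6 to 1.65 (SE 1.13) for Birc3, and none was at an unadjusted limma p below 0.05. Birc3 had 11.3, 0 and 7.62 CPM in wild type and 12.2, 13.2 and 7.95 CPM in KO, so its value leans on the 0 in wild type 2. Xiap had 24.5, 38.1 and 39.3 CPM in wild type and 46.2, 49.0 and 39.8 CPM in KO, without overlap, at 0.43 (SE 0.26). The 3 other subunits of the passenger complex all had lower means. Incenp, its scaffold, was at −0.81 (SE 0.32, limma adjusted p = 0.402), Cdca8, or borealin, at −0.90 (SE 0.48) and Aurkb, its kinase, at −0.15 (SE 0.43).

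Genes of proliferating cells mostly had lower means in KO, as Birc5 did. Of 24 listed, without Birc5, 23 had a row, and 21 means were lower and 2 higher, with a median of −0.71. At an unadjusted limma p below 0.05, 10 were lower and 0 higher, where 6.4% and 4.64% of all genes were. DESeq2 called 4 of the 23, against 1.13% of all genes, while limma called 0 at an adjusted p. Their summed level was 2413, 2593 and 2246 CPM in wild type and 1922, 1149 and 1801 CPM in KO, lowest in KO 2, where Birc5 was also lowest. Between KO 1 and KO 3 the order was opposite, since Birc5 had 8.01 CPM in KO 1 and 15.9 CPM in KO 3. Kif20a alone gave 507 CPM of the sum in KO 1, against 39.2 to 118 CPM in the other libraries. Cenpe, a mitotic motor, had 104, 120.4 and 72.1 CPM in wild type and 32.1, 25.5 and 36.7 CPM in KO, at −1.62 (SE 0.26, limma adjusted p = 0.150, DESeq2 adjusted p = 0.000417). Mki67, the marker Ki-67, was at −0.85 (SE 0.22), Top2a at −0.77 (SE 0.18) and Ccna2 at −0.71 (SE 0.18), and these 3 are the other DESeq2 calls. Without KO 2 the median was −0.46 with 7 lower, against 795 of all 10189 genes. Without KO 2 and wild type 1 together 5 were lower, against 721 of all genes. The part of this shift in the values of Birc5 was not tested.

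Gas1 is a membrane protein first found in growth-arrested cells, and it serves as a co-receptor of Hedgehog ligands (chr13:60174405-60177365, minus strand). It had 202, 80.8 and 147 CPM in wild type and 348, 199.9 and 287 CPM in KO. Wild type 1 exceeded KO 2 by a small margin, and otherwise the KO libraries were higher. With the 3 other scalings tried, the groups did not overlap. Means were 143 ± 60.9 CPM (SD, n = 3) and 278 ± 74.6 CPM (SD, n = 3). The log2 fold change was 1.02 (SE 0.34), which is 2.02-fold with a 95% interval of 1.19 to 3.43. The limma adjusted p was 0.329, that of edgeR 0.371 and that of DESeq2 0.178, so the difference did not pass. Without wild type 2, the lowest library, the log2 fold change was 0.65, and without wild type 1 it was 1.31. At 106 to 913 reads per library, depth was not the limit for this gene: between replicates the chi-square per degree of freedom came to 36.1 in wild type and 44.6 in KO.

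Of 12 other genes of Hedgehog reception, 6 had a row, with 4 means higher and 2 lower. Gli3, a transcription factor that mostly represses Hedgehog targets, had 9.42, 5.33 and 11.1 CPM in wild type and 26.7, 16.2 and 22.6 CPM in KO, without overlap, at 1.32 (SE 0.42, limma adjusted p = 0.315). Gli1, an activator and a target of the pathway, was at −0.86 (SE 0.45), and Smo, the signal transducer, at 0.48 (SE 0.33). Cdon and Boc, co-receptors like Gas1, were at 0.46 (SE 0.43) and 0.42 (SE 0.47), and both had their lowest KO value in KO 2, as Gas1 did. Cdon had 62.2 CPM there against 188 and 137 CPM in KO 1 and KO 3. The count over the 7 genes with Gas1 moved with single KO libraries. At an unadjusted limma p below 0.05 it was 2 higher and 0 lower with all libraries, where 4.64% and 6.4% of all genes were, and the median was 0.46. Without KO 2 it was 5 higher and 1 lower, against 479 and 795 of all 10189 genes, with a median of 0.92. Without KO 1 it was 1 higher and 0 lower, against 338 and 549 of all genes, with a median of 0.12. KO 2 is also the library with the highest macrophage sum, 15015 CPM, of which Lyz2 gave 12165 CPM. Among wild-type libraries, Gas1, Cdon and Boc were lowest in wild type 2, whose macrophage sum of 5703 CPM lay between those of wild type 1 and 3. The part of the macrophage genes in these values was not tested.

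**Figure D4:**
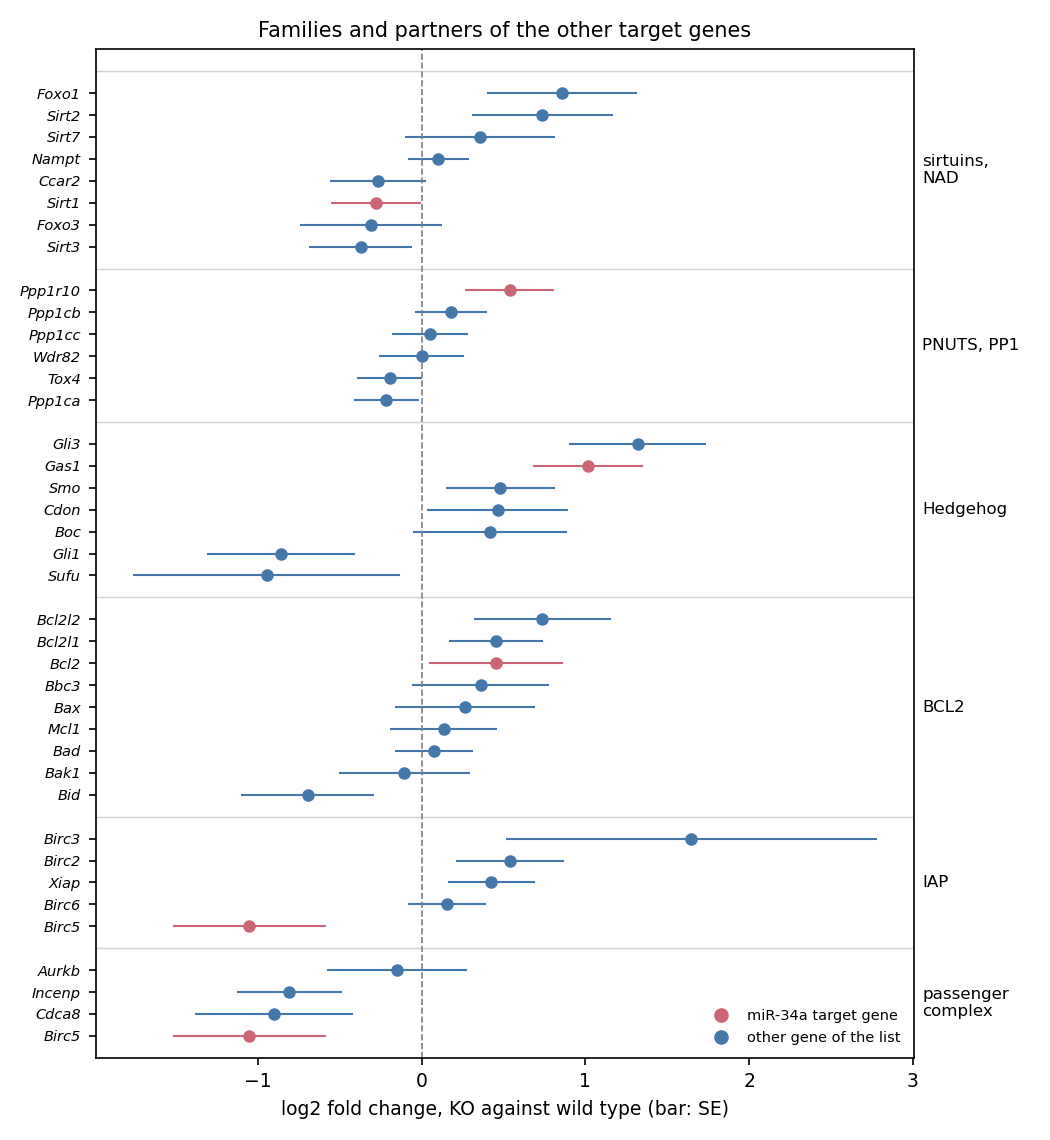
Log2 fold change, KO against wild type, of Sirt1, Ppp1r10, Gas1, Bcl2 and Birc5 (red) and of the other measured genes of their families and complexes (blue), with a bar for the SE of 3 against 3 libraries and a dashed line at 0. Birc5, at −1.05, lies below 0 with the passenger complex and apart from the other IAP genes listed, which lie between 0.15 and 1.65. The highest of these is Birc3, which was at 0 CPM in wild type 2.

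**Figure D5:**
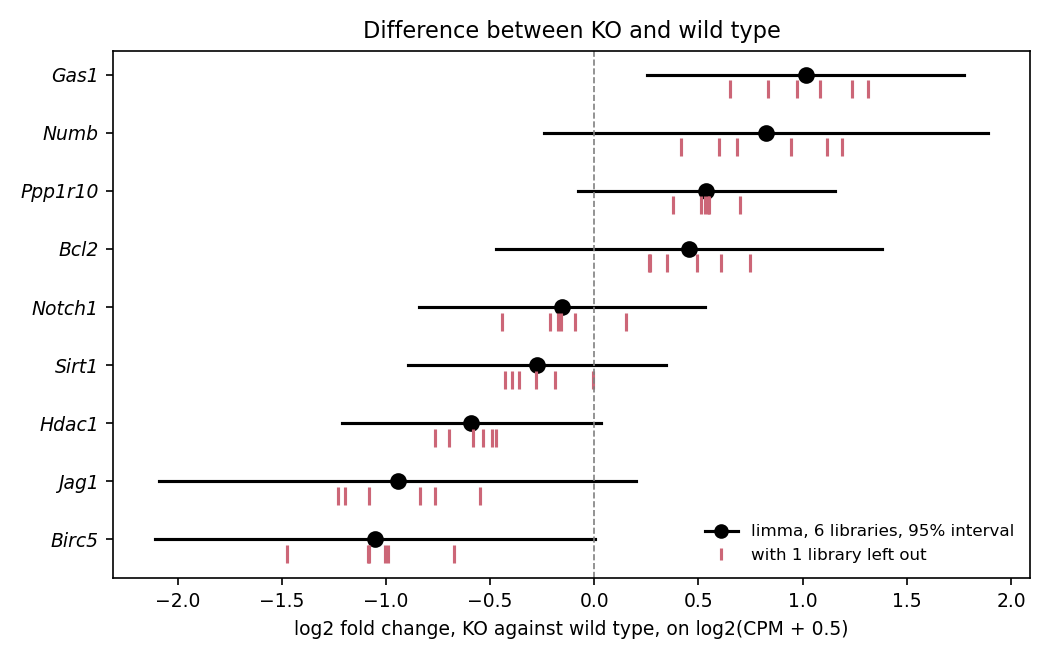
Log2 fold change, KO against wild type, of the 9 genes with the 95% interval of the limma fit (black) and, below each, a tick for the value with each of the 6 libraries left out. Gas1, at 1.02, is the gene whose interval lies wholly above 0, and Notch1 has leave-out values on both sides of 0.

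Set against the kind of site, each group of genes held both directions. Of the genes with CACTGCC, Ppp1r10 was at 0.54 and Notch1 and Jag1 at −0.16 and −0.94. Of those with ACTGCCA as best match, Gas1 and Bcl2 were at 1.02 and 0.45 and Sirt1 and Hdac1 at −0.28 and −0.59. Of those with the core alone, Numb was at 0.83 and Birc5 at −1.05. Notch1, with the most sites, had the smallest absolute difference. Each of the 9323 genes with an annotated 3′ UTR was also placed by its best match only. The median log2 fold change was 0.03 for the 6028 genes without the core and 0.05 with the core alone (1034 genes). It was 0.01 with ACTGCCA as best match (593), 0.04 with CACTGCC (1082) and 0.05 with CACTGCCA (586).

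A further list of published miR-34a targets, 49 symbols of which 34 had a row, was split evenly, with 17 means higher and 17 lower, a median of 0.01 and none at an unadjusted limma p below 0.05. Cyr61, a secreted matrix protein, had 273, 187 and 222 CPM in wild type and 185, 168 and 143 CPM in KO, without overlap, at −0.45 (SE 0.20, limma adjusted p = 0.458). E2f5, a cell cycle transcription factor, was at −0.43 (SE 0.24). The growth factor receptors Pdgfrb and Pdgfra were at 0.81 (SE 0.47) and 0.79 (SE 0.47). Pdgfra had its lowest value, 57.9 CPM, in wild type 2, which was also the lowest library of Gas1.

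Levels were compared between genes per kb of annotated exons, as the mean CPM per kb over the 6 libraries. Gas1 was highest at 71.2 (27.3 to 118 over libraries), a level above 95.2% of 9796 genes. Sirt1 followed at 9.92 (7.73 to 15.5) and Hdac1 at 8.60 (5.86 to 12.1). Numb at 4.91 CPM per kb, Ppp1r10 at 4.83, Birc5 at 4.12 and Notch1 at 3.69 formed a middle group whose ranges overlap. Jag1 at 2.04 and Bcl2 at 1.55 were lowest, and Bcl2 lay above 9.17% of genes. From Sirt1 down, each gene's range overlapped that of its neighbour in this order, although genes further apart could be separate. Sirt1 at its lowest, 7.73, lay above Birc5 at its highest, 5.91. Only Gas1 was separated from all the others. The order below it differed between genotypes: in wild type Birc5 (5.41) led the middle group and Numb (3.55) closed it, in KO Numb (6.27) led and Birc5 (2.82) closed it, and Jag1 (1.40) lay below Bcl2 (1.78) in KO. Exons of all isoforms were joined, 14232 bases for Notch1, which lowers the level of a gene with many unused exons.

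For each of the 9 genes, the genes of the table whose centred log2 profile over the 6 libraries lay closest to it were found, leaving out genes with a mean under 10 CPM. With 6 libraries and 8696 genes at or above that mean, close profiles are a description. Notch1, high in wild type 2, was nearest to Fbxl14, with a root mean square log2 difference of 0.10, and to Dtx3l, a Deltex family ligase, also at 0.10. Sirt1, high in wild type 3, was nearest to Olfml2b at 0.11 and Sirt3 at 0.11. Birc5 was nearest to the histone gene Hist1h2ak and to Dlgap5, a spindle protein, both at 0.13. Gas1 was nearest to Spire1 at 0.08 and C330007P06Rik at 0.13, Hdac1 to 2810417H13Rik at 0.06 and Rffl at 0.08, and Ppp1r10 to Chpf2 at 0.05 and Kif1bp at 0.08. Jag1 was nearest to Scn3b at 0.17 and Hist1h2ap at 0.20, Numb to Stxbp2 at 0.14 and Plekho2 at 0.18, and Bcl2 to Sos1 at 0.10 and Ubxn2a at 0.10. The root mean square spread of the 9 genes themselves ran from 0.32 for Sirt1 to 0.70 for Birc5 and Numb.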

How the data were processed

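The signal per gene and library was deposited by the authors as TMM-normalized CPM, per the name of the table, with 10189 genes kept. Per the submitters' processing notes, the tools included edgeR, StringTie 1.3.5, HISAT2 2.1.0, cutadapt 1.18 and bcl2fastq, with the build mm10 and no roles given, and the labels' protocols give a stranded total RNA kit. No source used here gives the annotation, the strand setting or the rule for low genes. In each row the second highest value was at least 7.35 CPM. All values (100%) were whole multiples of a library's step (0.382 to 0.762 CPM, within 0.001 reads), which gives back whole reads. The design had assumed plain CPM, and the same log-scale test was kept for this signal. The column name of KO 3 has a letter in place of a digit of its title, and 0 columns of values were left unmapped.

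KO and wild type, 3 libraries each, were compared on log2(CPM + 0.5) by a two-sided limma test (limma 3.58.1 with trend, R 4.3.3), adjusted by Benjamini-Hochberg over all genes and read at 0.05. Alternatives on the recovered reads were DESeq2 1.42.0, limma-voom and edgeR 4.0.16 (quasi-likelihood). The procedure was tested on simulated data. Symbols were matched to GENCODE M21 (mm10) for 9796 genes (96.1%), and seed matches were searched in the longest 3′ UTR of at least 20 bases. Replicates differed by more than sampling noise, with a chi-square per degree of freedom of 5.83 to 27.8.

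The 9 genes, the gene lists and the tests were chosen with earlier results of these data known. Named were all 9 genes, up to 4 other members of smallest p per list, and the 2 nearest profiles of each gene. Xist, Tsix, Rn45s and Lars2 were named for the strand and the composition of the libraries. Ncor1, Mcl1, Cdon, Boc, Kif20a and Mir6236 lie outside this rule and were named after their values were seen. So were Lyz2, Mrc1, Ibsp, Bglap, Bglap2, Cspg4, Fbn1 and Lum among the cell type markers. Further alternatives changed the scaling, the pseudocount or a filter on low genes, or used other variance models, a replicate block, and left out each library, or wild type 1 and KO 2 together. The list counts without libraries were chosen after seeing the data.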

Additional observations from a re-analysis of the deposited data

How the results depend on the processing

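Over 20 alternatives per gene, 179 of 180 log2 fold changes of the 9 genes had the direction given in the report, and 0 passed an adjusted p below 0.05 (lowest 0.171, Gas1 without wild type 1 and KO 2). The exception was Notch1, at −0.44 to 0.15 with each library left out, the last without wild type 2. Among all genes, 0 were higher at an adjusted p below 0.05, and 1 with robust limma, 7 without trend, 42 with DESeq2 and 0 to 7 when each library was left out. There was 1 lower gene, and 2 with a pseudocount of 2, edgeR, or wild type 1 and KO 2 left out, 3 without trend or with robust limma, 73 with DESeq2 and 0 to 25 with each library left out. Of the 9 genes, 1 was higher at an unadjusted p below 0.05 and 0 to 2 with each library left out. None was lower, against 1 with a pseudocount of 2, quantile normalization, no trend, robust limma or array weights, 2 with limma-voom and 0 to 1 with each library left out. Ppp1r10 was the gene above wild type without overlap, and with median of ratios, quantile and TMM without 3 genes there were 2, with Gas1. The number of UTRs with a match was 3 for bases 2 to 8 and 9 for bases 2 to 7. The cause of these differences was not tested.

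The replicate block gave 0 genes lower and 0 higher and brought none of the 9 past the adjusted threshold. With it the unadjusted limma p of Gas1 was 0.00115, against 0.0144 without it, and the adjusted p was 0.311. Deviations of libraries with the same number correlated at 0.03, 0.08 and −0.06, and not every library correlated best with its own number. The labels do not say whether equal numbers share a litter or day. With 3 libraries per genotype these correlations cannot decide it. With 10 to 55 reads per library in Birc5, Jag1 and Bcl2, counting error is wide, but it was not the only spread between replicates. The chi-square per degree of freedom in wild type and KO was 0.183 and 6.34 for Birc5. It was 2.68 and 3.63 for Jag1 and 3.00 and 2.25 for Bcl2. A difference that did not pass is not shown to be absent.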
